A study of Mus musculus with 14 samples.

Results

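The 5 libraries described here are those in which RNA of Lct, the lactase of mature enterocytes, was nearly absent: actin bait replicates 1, 3 and 4 (ACTB-1, ACTB-3 and ACTB-4), DPP4 bait replicate 4 (DPP4-4) and GFP bait replicate 1 (GFP-1). They were chosen by their measured Lct level, under 2 CPM (counts scaled to the library total), from 14 libraries in all and 12 of the DPP4, GFP and actin baits, so that the actin bait could be set against other baits among organoids that all lacked this enterocyte RNA. The study measured RNA biotinylated by fusions of APEX2, a peroxidase, in mouse small intestinal organoids (sIOs) and captured with streptavidin. The sIOs were grown from crypts of C57BL/6J mice, transduced with lentivirus, kept in biotin-phenol and treated briefly with H2O2. APEX2-V5-DPP4 is held at the apical membrane, whereas APEX2-V5-GFP and APEX2-V5-ACTB lie in the cytoplasm, and all 5 libraries carried 1 of these fusions. The sources used here do not say whether the replicates of each bait are separate cultures or separate transductions, so p-values measure only the spread between these libraries, which may be technical.

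Beta-actin polymerizes into the filaments that shape epithelial cells, hold their junctions and microvilli and anchor them to matrix through focal adhesions. Tension on these filaments is known to act on gene expression through the coactivators MRTF and YAP. Intestinal epithelium without mature enterocytes can adopt a fetal-like or regenerative state, known for markers such as Ly6a and Anxa genes and for YAP activity. Cells short of oxygen switch on glycolytic enzymes through hypoxia-inducible factors.

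Lct had 4, 32 and 41 counts in ACTB-1, ACTB-3 and ACTB-4, 0 in DPP4-4 and 4 in GFP-1. The library just inside the limit, ACTB-4, held 1.24 CPM of Lct, and the nearest library of these baits outside it, DPP4-2, held 17.9 CPM. ACTB-2 lay far outside at 154 CPM. Since Lct chose the libraries, it and the other enterocyte genes are given as a description. The summed level of 40 enterocyte genes, in CPM scaled by TMM over the 12 libraries (normalized CPM, used for every level below), was 4042, 1485 and 1432 in the actin libraries and 1940 and 1657 in DPP4-4 and GFP-1, against 8149 to 129482 in the 7 libraries over the limit. ACTB-1 kept more of this RNA than the rest, with Alpi, the intestinal alkaline phosphatase, at 492 normalized CPM against 0.363 to 31.8 in the other 4. Of the 40 genes, 28 had a log2 fold change of the actin libraries over DPP4-4 and GFP-1 above 0 (56.98% over all genes tested). The median of the 40 was 0.77, against 0.17 over all genes. In the tests below edgeR called Dpp4 lower, and DESeq2 called Dpp4 and Ace lower and Sis higher. Fewer enterocytes and less enterocyte RNA per cell cannot be told apart in bulk libraries.

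All 5 libraries carried epithelial RNA. Epcam ranged from 209 to 846 normalized CPM, Cdh1 from 378 to 981, Krt8 from 658 to 1596 and Vil1, which bundles microvillus actin, from 138 to 203. The intestinal transcription factor Cdx2 was at 12.8, 6.74 and 2.01 in the actin libraries and at 13.7 and 7.23 in DPP4-4 and GFP-1, against 25.9 (GFP-3) to 143 in the 7 libraries over the limit, while the gastric peptide gene Tff1 ranged from 89.5 to 2407 over the 5. Summed levels of 16 mesenchymal markers were 1.57 to 9.14 in the actin libraries and 2.46 and 2.696 in the others, and those of 16 immune and endothelial markers were 9.61 to 28.5 and 10.5 to 22.6. Totals were 29508479 to 36388659 counts in the actin libraries, 30510412 in GFP-1 and 9763053 in DPP4-4, where 36.5% of counts came from 10 genes against 11.8% to 19.1% elsewhere. The libraries were not alike within the actin bait. Over 7752 genes, a correlation of log2 CPM across genes was 0.645 to 0.724 between actin libraries, 0.679 to 0.776 between an actin library and another bait and 0.920 between DPP4-4 and GFP-1. ACTB-4 lay nearest to GFP-1, not to an actin library. The counts of DPP4-4 and GFP-1 had a chi-square of 215 per degree of freedom over 13397 genes, which shows only that they are not 1 library deposited under 2 labels.

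With the actin libraries set against DPP4-4 and GFP-1 in edgeR's quasi-likelihood test, 5 of 25437 genes (0.0197%) were higher in the actin libraries and 18 (0.0708%) were lower, with an adjusted p below 0.05 and more than 2-fold apart. These genes are called higher or lower below. The higher genes included Inhba, Pmepa1, Sox4 and Tnfrsf11b, which code for secreted, membrane or nuclear regulators. Among the lower genes were Tbx3, Irx5 and Hif3a, which code for transcription factors, Nid2 and Hspg2, which code for basement membrane components, Itln1 and Gkn1, whose products are secreted, and the adenylate kinase gene Ak4. The biological coefficient of variation was 0.850, log2 fold changes had a median standard error of 1.58, and the median log2 fold change of all genes was 0.17. An exact permutation test of 3 against 2 libraries has 10 arrangements and cannot go below p = 0.2 (two-sided). The calls rested on single libraries: edgeR called 0 genes higher and 0 lower without ACTB-3 (1815 genes at an unadjusted p under 0.05) or without GFP-1 (592 genes), and 0 higher and 2 lower, Nlrp10 and Tbx3, without DPP4-4. Without ACTB-1 it called 83 higher and 98 lower, and without ACTB-4 it called 59 and 60. Where DPP4-4 or GFP-1 was left out, the lone library was assumed to vary like the actin libraries. The sign of all 23 genes was the same in each of these 5 fits. The actin libraries did not overlap the others in any of the 23, so this was fixed in advance.

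**Figure D1:**
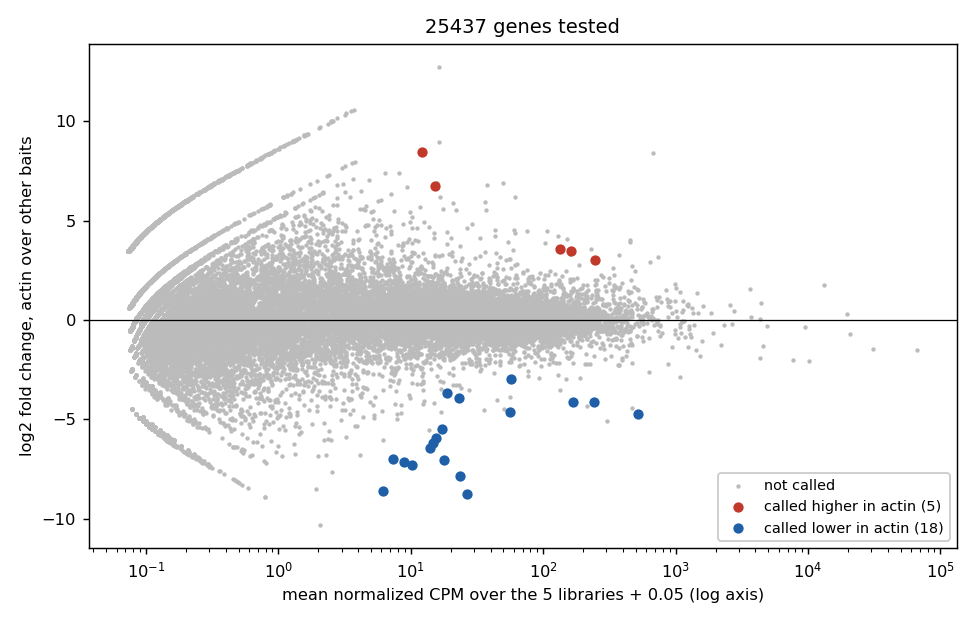
Each point is 1 of the 25437 genes tested, with its mean normalized CPM over the 5 libraries plus 0.05 on a log axis and its log2 fold change of the actin bait over the other baits. The 5 genes called higher (red) and the 18 called lower (blue) are drawn over the genes not called (grey), some of which lie as far from 0, such as Fn1 at 6.22, Chgb at 5.95 and Mmp7 at −4.31.

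The bait genes came first. Dpp4, the apical peptidase fused in the DPP4 bait, was at 0.305, 0.361 and 0.335 normalized CPM in the actin libraries, at 53.1 in DPP4-4 and at 35.3 in GFP-1. The 3 actin libraries lay far below both others, GFP-1 included, and below the 7 libraries over the limit, which ranged from 45.2 to 257 (ACTB-2 at 146). Dpp4 was among the 18 genes called lower (log2 fold change −7.07 ± 0.67). However, Dpp4 is also an enterocyte gene, and GFP-1 carries no DPP4 fusion, so its level does not check the labels. Actb was at 1615, 1751 and 2361 in the actin libraries and at 1283 and 967 in DPP4-4 and GFP-1. Its levels did not overlap, yet the difference did not pass (log2 fold change 0.73 ± 0.44, adjusted p = 0.823). Whether reads of the constructs were counted in either gene was not tested.

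Inhba codes for the subunit of activin A, a secreted ligand of the TGF-beta family. It was at 21.2, 15.8 and 37.9 normalized CPM in ACTB-1, ACTB-3 and ACTB-4 and at 0.224 and 0.222 in DPP4-4 and GFP-1, from 2 and 8 counts. All 3 actin libraries lay far above, and the mean was 112-fold higher (log2 fold change 6.75 ± 0.92, adjusted p = 0.0262). Gm48444, a gene antisense to Inhba on chromosome 13 (16025382 to 16032275, minus strand, GRCm38), had 790, 422 and 1036 counts in the actin libraries and 1 and 1 in the others (adjusted p = 0.0277). The 2 genes overlap and the library kit does not mark strand, so their reads cannot be told apart and they count as 1 locus.

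Pmepa1 codes for a membrane protein that restrains TGF-beta signaling and is itself induced by it. Its levels were 157, 256 and 358 in the actin libraries and 24.0 and 20.8 in DPP4-4 and GFP-1. The mean was 11.5-fold higher in the actin libraries (log2 fold change 3.49 ± 0.50, adjusted p = 0.0288). Other genes of this pathway did not all lie on the same side: Smad7, an inhibitor, was at 15.6, 16.9 and 23.3 against 21.8 and 27.3, and Skil was at 78.2, 47.1 and 137 against 29.4 and 52.0. Both of these were looked up after the calls were seen, and both overlapped between the groups.

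Tnfrsf11b codes for osteoprotegerin, the soluble decoy receptor of RANKL. It was at 105, 335 and 193 in the actin libraries and at 13.7 and 21.5 in the others, with a mean 12-fold higher in the actin libraries (log2 fold change 3.56 ± 0.58, adjusted p = 0.0476). Sox4, a transcription factor of progenitor cells, was at 242, 470 and 429 against 46.9 and 46.1 (log2 fold change 3.01 ± 0.47, adjusted p = 0.0417). For both genes the lowest actin library was several times the highest other library.

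Of the genes with the smallest p among those not called, 8 higher in the actin libraries were named by rule. Thbs1, the matrix protein thrombospondin 1, was at 281, 435 and 1031 against 53.6 and 64.7 (log2 fold change 3.27 ± 0.60, adjusted p = 0.0939). Cd24a, a surface glycoprotein of crypt cells, was at 384, 752 and 399 against 74.0 and 87.0 (2.64 ± 0.48, adjusted p = 0.0939). The remaining 6 were Chgb, Tmsb4x, Nfe2l3, Ppp2r2b, Gadd45a and Ckap4, with log2 fold changes from 2.11 to 5.95 and no overlap between the groups.

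Tbx3, a T-box repressor of developing organs, was at 0.0703, 0.391 and 0.307 normalized CPM in ACTB-1, ACTB-3 and ACTB-4, from 3, 13 and 11 counts, and at 53.1 and 64.0 in DPP4-4 and GFP-1. It was 229-fold higher in the other baits (log2 fold change −7.86 ± 0.76, adjusted p = 0.00196). None of the 3 actin libraries came near the levels of the others. Irx5, an Iroquois homeodomain factor, had 1, 0 and 3 counts in the actin libraries and 170 and 406 in DPP4-4 and GFP-1 (adjusted p = 0.0476).

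Nlrp10, a NOD-like receptor of innate immunity, had the lowest log2 fold change of the calls. It was at 0.0234, 0.331 and 0.112 in the actin libraries, from 1, 11 and 4 counts, and at 54.1 and 77.6 in the others (−8.76 ± 0.87, adjusted p = 0.00196). Rdx codes for radixin, which links cortical actin to the membrane and is thus a gene of actin biology among the calls. It was at 0.656, 0.421 and 0.781 in the actin libraries against 32.6 and 42.4, 60.6-fold higher in the other baits (−5.94 ± 0.69, adjusted p = 0.00708). Of the other proteins of its family, ezrin (Ezr) was at 727, 445 and 409 against 412 and 299 with overlap, and moesin (Msn) was at 37.3, 108 and 182 against 35.4 and 23.8 and did not pass (1.86 ± 0.60, adjusted p = 0.622). Ezr and Msn were added after the value of Rdx had been seen.

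Nid2 and Hspg2, which code for components of basement membrane, were both called lower. Nid2, the laminin-binding nidogen 2, was at 0.234, 0.813 and 0.139 against 34.2 and 34.4 (−6.45 ± 0.89, adjusted p = 0.0262). Hspg2, the heparan sulfate proteoglycan perlecan, was at 2.81, 3.70 and 3.68 against 50.5 and 33.1 (−3.65 ± 0.57, adjusted p = 0.0417). Its 3 actin libraries lay close together and far below both others. The list of laminins and secreted matrix, given further on, had members on both sides of 0.

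Itln1, an intelectin secreted by Paneth and goblet cells, was at 39.3, 25.4 and 32.6 against 764 and 355 (−4.14 ± 0.46, adjusted p = 0.00499). Gkn1, gastrokine 1, which is known as a product of the stomach surface, was at 87.7, 13.5 and 43.4 against 1622 and 821 (−4.71 ± 0.69, adjusted p = 0.0417). Both were abundant in DPP4-4 and GFP-1 and were not lost from the actin libraries. Other gastric genes, looked up after the calls, did not share 1 direction. Gkn2 was at 127, 1.38 and 31.6 against 1529 and 671, and was not called. Gkn3 was at 26.9, 839 and 2583 against 267 and 527 and overlapped, as did Muc5ac and Muc6. Of the 11 Paneth markers tested, Itln1 included, 6 lay above 0 and 5 below. Itln1 was the 1 called by edgeR, and DESeq2 called Itln1 and Mmp7 lower and Nupr1 higher.

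Slco2a1, a prostaglandin transporter, was at 1.03, 0.301 and 1.45 against 61.1 and 21.3 (−5.50 ± 0.81, adjusted p = 0.0337). Aqp1, a water channel, was at 7.03, 1.14 and 8.45 against 148 and 116 (−4.62 ± 0.70, adjusted p = 0.0476). In both genes the groups stood well apart, although DPP4-4 and GFP-1 themselves differed in Slco2a1. Cyp2s1, a cytochrome P450, was at 43.7, 7.13 and 17.9 against 451 and 321 (−4.12 ± 0.64, adjusted p = 0.0476). Hsd17b2, which inactivates estradiol and testosterone, was at 0.141, 0.241 and 0.0837 against 28.1 and 15.8 (−7.14 ± 1.01, adjusted p = 0.0277). Fam234b was at 0.164, 0.120 and 0.139 against 8.05 and 28.0 (−6.99 ± 1.10, adjusted p = 0.0417). The actin libraries were uniformly low in both of these genes.

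**Figure D2:**
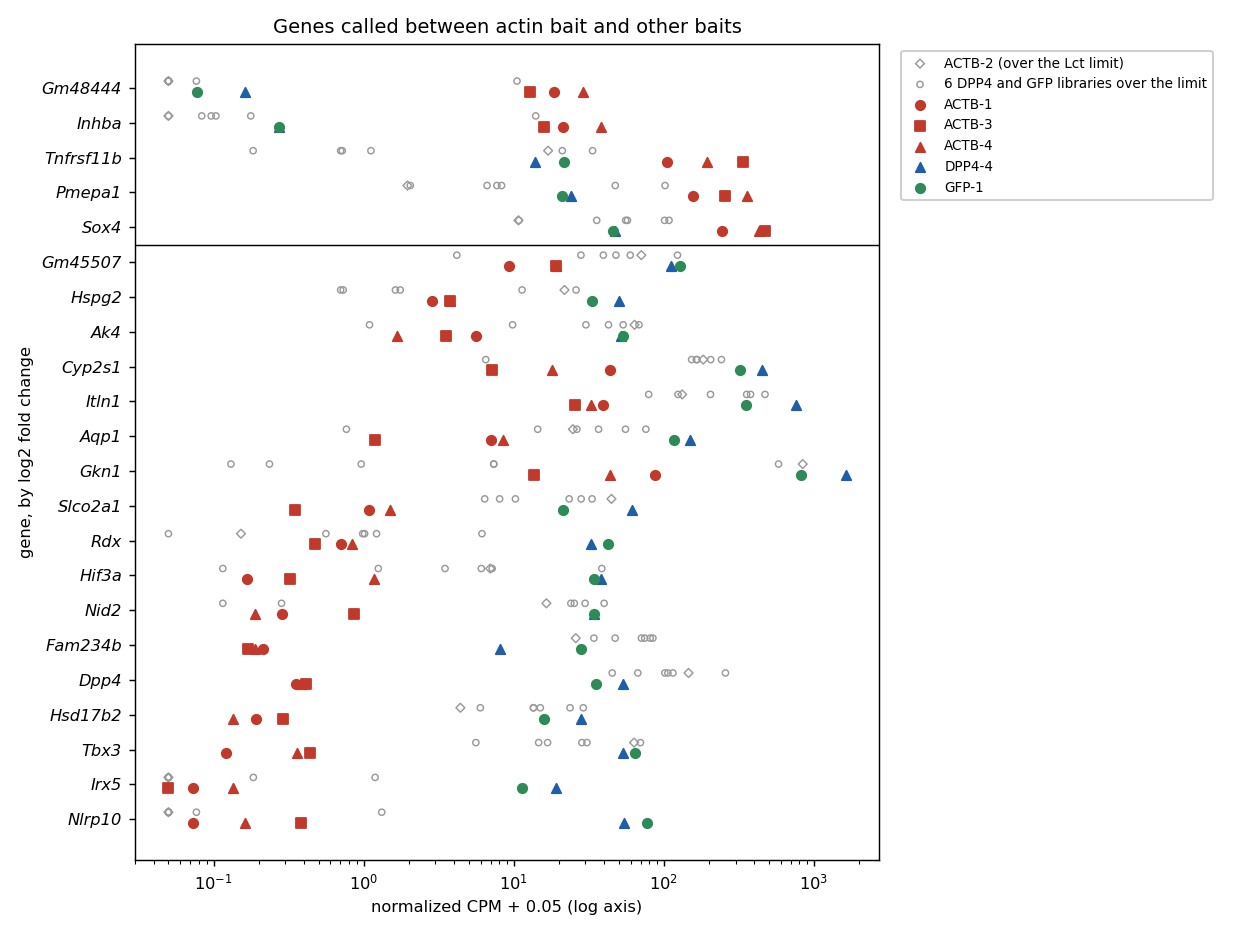
Normalized CPM plus 0.05 on a log axis for 22 of the 23 called genes, ordered by log2 fold change, with the 5 called higher above the line and 17 called lower below it. Filled symbols are the 5 libraries, grey diamonds ACTB-2 and grey circles the 6 DPP4 and GFP libraries over the Lct limit; the red symbols of each gene stand apart from the blue and green ones, and in most genes ACTB-2 lies with the other baits.

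ACTB-2, the actin library over the Lct limit, took no part in the choice of calls and shares its bait with ACTB-1, ACTB-3 and ACTB-4. On log2 (normalized CPM + 0.5), ACTB-2 lay nearer to the mean of DPP4-4 and GFP-1 than to that of the actin libraries for 20 of the 23 genes, including all 5 called higher. It lay nearer to the actin libraries for Nlrp10, Irx5 and Rdx. Sox4 was at 10.7 normalized CPM in ACTB-2, Pmepa1 at 1.91, Tnfrsf11b at 16.9 and Inhba at 0, each far below the 3 actin libraries. Tbx3 was at 63.2 in ACTB-2, Fam234b at 25.8 and Nid2 at 16.4, each far above them. The contrast thus separated 3 actin libraries from DPP4-4 and GFP-1, but not the actin bait as a whole, and bait, transduced line and culture cannot be told apart.

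The 6 DPP4 and GFP libraries over the limit showed several patterns. For all 5 genes called higher, each of the 7 libraries over the limit lay below all 3 actin libraries, although GFP-4 reached 13.9 normalized CPM of Inhba. Dpp4, Tbx3, Itln1, Hsd17b2, Slco2a1 and Fam234b were higher in all 7 than in any of the 3 actin libraries, so that here the actin libraries were the ones set apart. Nlrp10 ranged from 0 to 1.27, Irx5 from 0 to 1.14 and Rdx from 0 to 6.09 over the 7, and there DPP4-4 and GFP-1 were set apart. Hspg2 ranged from 0.652 to 25.9, Aqp1 from 0.717 to 75.8 and Cyp2s1 from 6.45 to 242, all below DPP4-4 and GFP-1 but in part above the actin libraries. Gkn1 ranged from 0.0804, below the actin libraries, to 841, at the level of GFP-1. These 7 libraries hold far more enterocyte RNA, and its part in these levels was not tested.

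Genes of the actin filament itself lay on both sides of 0. Of all genes tested, 782 (3.07%) were higher and 911 (3.58%) lower at an unadjusted p under 0.05. These shares apply to each list below. Of 34 genes for actin monomers, nucleation and turnover, 20 had a log2 fold change above 0 and 14 below, with a median of 0.16 against 0.17 for all genes tested, of which 56.98% lay above 0. None was called by edgeR, DESeq2 called Tmsb4x, Cfl1 and Cfl2 higher, and 4 members were higher and 2 lower at an unadjusted p under 0.05. For 8 of the 34 every actin library lay above both others and for 3 below, while over all genes tested 13.0% lay above and 10.2% below in this way. Tmsb4x, thymosin beta 4, which binds monomeric actin, was at 436, 466 and 461 normalized CPM in the actin libraries and at 92.1 and 113 in DPP4-4 and GFP-1. The 3 actin libraries were nearly equal and 4.42-fold above the mean of the others, but the difference did not pass (2.11 ± 0.41, adjusted p = 0.140). Cfl1, the filament-severing cofilin 1, was at 204, 286 and 194 against 75.1 and 73.0 (1.59 ± 0.41, adjusted p = 0.350), and muscle-type Cfl2 was at 21.7, 32.7 and 20.8 against 7.82 and 5.84. Actg1, cytoplasmic gamma-actin, was at 167, 480 and 234 against 160 and 109. Capg, a capping protein, was at 70.7, 81.4 and 91.4 against 166 and 141, on the other side, and Coro1c, a coronin, was at 95.9, 56.3 and 103 against 136 and 183.

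Bundling proteins, crosslinkers and myosins were divided in the same way, with 20 of 33 above 0, 13 below and a median of 0.14. At an unadjusted p under 0.05, 4 were higher and 2 lower, edgeR called none and DESeq2 called Pls1 lower. Tagln2, transgelin 2, was at 778, 557 and 448 against 245 and 205 (1.37 ± 0.43, adjusted p = 0.592). Pls1, the plastin of microvillus cores, was at 185, 141 and 166 against 379 and 471 (−1.41 ± 0.38, adjusted p = 0.397). These genes lay on opposite sides with no overlap. Caldesmon (Cald1) was at 4.78, 12.5 and 32.0 against 3.58 and 2.53, and calponin 3 (Cnn3) was at 66.3, 195 and 141 against 60.0 and 59.6.

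Focal adhesion and integrin genes lay mostly above 0, in 24 of 28 (56.98% over all genes), with a median of 0.37. None was called by edgeR and 3 were higher at an unadjusted p under 0.05 (3.07% over all genes). In 9 of the 28 every actin library lay above both others and in 0 below, where 13.0% and 10.2% of all genes did. Zyx, the mechanosensitive adaptor zyxin, was at 213, 128 and 220 against 46.7 and 63.8 (1.72 ± 0.43, adjusted p = 0.318) and was called by DESeq2. Pdlim7, which binds actin filaments by its PDZ domain, was at 59.9, 104 and 163 against 33.6 and 23.5. Cd9, an integrin-associated tetraspanin, was at 354, 415 and 280 against 101 and 138. All 3 of these genes were higher in each actin library than in either other library, by factors that did not pass the test across genes.

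**Figure D3:**
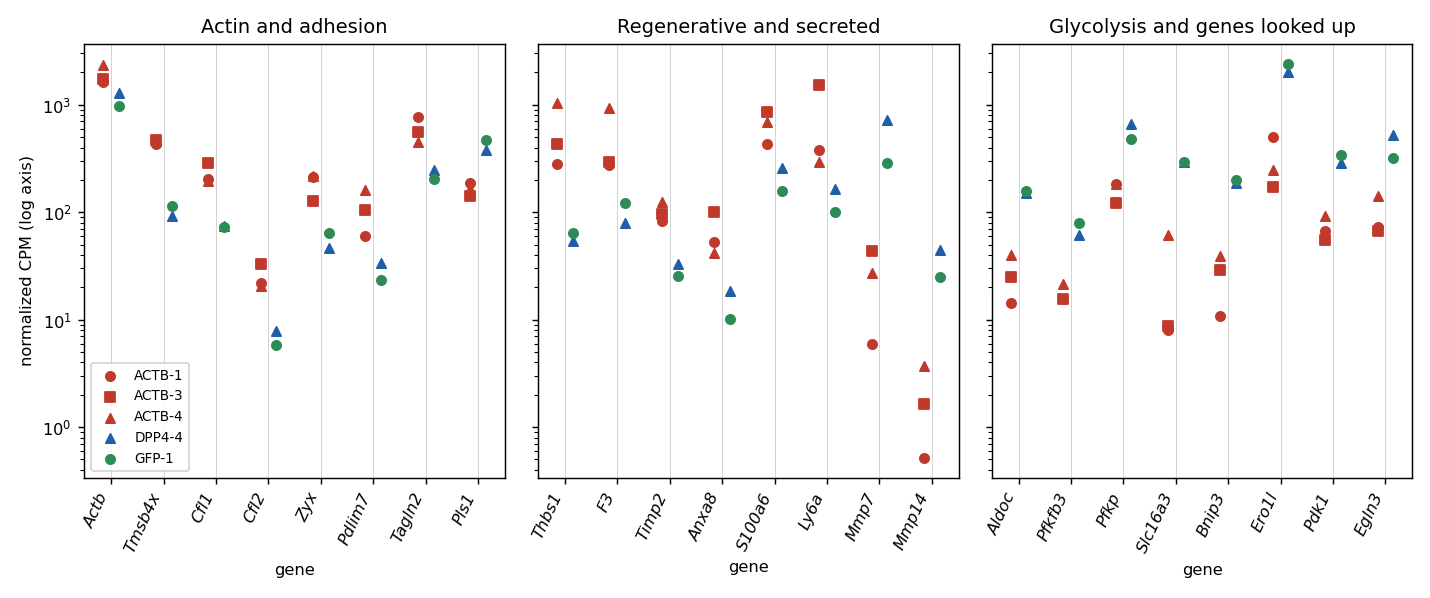
Normalized CPM on a log axis of 8 genes each of actin and adhesion, of regenerative and secreted proteins, and of glycolysis with genes looked up after the calls, in the 5 libraries. The genes were picked because their 3 actin libraries (red) lie on 1 side of DPP4-4 (blue) and GFP-1 (green), and genes that overlap, such as Gapdh and Vegfa, are left out. The red symbols lie above the blue and green ones for genes such as Tmsb4x and Thbs1 and below for Pls1, Mmp7, Mmp14 and the whole right panel.

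Targets of the mechanical coactivators were counted in 2 lists, which were not tested against each other. SRF and MRTF targets had 12 of 20 above 0, close to the share over all genes, a median of 0.13, and 0 higher and 1 lower at an unadjusted p under 0.05. None of them was called by edgeR or DESeq2. Over all genes tested 56.98% lay above 0, and 3.07% were higher and 3.58% lower at that p. YAP and TEAD targets had 16 of 24 tested above 0 and a median of 0.42, with 5 higher and 0 lower at an unadjusted p under 0.05, none called by edgeR and Gadd45a called by DESeq2. F3, tissue factor, was at 274, 291 and 932 normalized CPM against 78.8 and 122 (2.28 ± 0.60, adjusted p = 0.373). Gadd45a, a stress-induced growth arrest gene, was at 79.0, 67.3 and 41.9 against 12.6 and 10.7 (2.40 ± 0.48, adjusted p = 0.153). Amotl2, an angiomotin that binds YAP, was at 39.6, 25.8 and 67.6 against 15.5 and 17.3, again without overlap. Of the 8 members below 0, Ccn2 was at 1.78, 50.6 and 55.5 against 57.7 and 33.5. Ankrd1, also below 0, was at 0, 1.23 and 14.8 against 10.4 and 6.62, and both of these overlapped.

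Fetal-like and regenerative genes had 20 of 28 tested above 0 (56.98% over all genes) and a median of 0.49. At an unadjusted p under 0.05, 7 were higher and 1 lower (3.07% and 3.58% over all genes), and 0 were called by edgeR or DESeq2. Ly6a, known as Sca-1 in regenerating epithelium, was at 377, 1530 and 292 against 165 and 100 (2.45 ± 0.74, adjusted p = 0.600). Anxa8, an annexin, was at 53.3, 99.7 and 41.4 against 18.3 and 10.2 (2.16 ± 0.54, adjusted p = 0.325). S100a6 was at 431, 864 and 698 against 260 and 158, and S100a11 at 78.5, 185 and 48.0 against 23.9 and 14.0. All of these were higher in every actin library. Sprr1a, a cornified envelope precursor of the same list, lay on the other side at 30.4, 14.1 and 47.3 against 105 and 67.5. The summed level of the list was 16549, 36470 and 40730 in the actin libraries and 13097 and 14867 in the others, against 1974 to 8139 in the 7 libraries over the limit. It was high in all 5 libraries.

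Laminins and secreted matrix genes had 12 of 29 above 0, 17 below and a median of −0.14, with 2 higher and 5 lower at an unadjusted p under 0.05, Hspg2 called lower by edgeR, and 3 higher and 3 lower called by DESeq2. Mmp7, matrilysin, which activates Paneth cell defensins, was at 5.91, 43.6 and 27.3 against 714 and 287 (−4.31 ± 0.78, adjusted p = 0.168). Mmp14, a membrane-bound collagenase, was at 0.516, 1.63 and 3.71 against 44.4 and 24.8 (−4.17 ± 0.83, adjusted p = 0.143). Timp2, an inhibitor of these proteases, was at 82.1, 97.0 and 123 against 33.1 and 25.2 (1.76 ± 0.42, adjusted p = 0.286). The proteases were thus low and the inhibitor high in each actin library, none past the edgeR threshold. Fn1, fibronectin, ranged from 0.258 in ACTB-1 to 263 in ACTB-4 and was at 2.24 and 0.611 in the others, so the spread among the actin libraries exceeded the difference.

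Glycolysis genes lay on the low side in the actin libraries as a list, although edgeR called none of them. Of 20 genes 18 had a log2 fold change below 0, the median was −1.15 against 0.17 for all genes, 12 were lower and 0 higher at an unadjusted p under 0.05, and 4 were called lower by DESeq2. In 13 of the 20 every actin library lay below both others, where 10.2% of all genes did. Aldoc, the aldolase C isoenzyme, was at 14.4, 25.2 and 39.7 normalized CPM in ACTB-1, ACTB-3 and ACTB-4 and at 151 and 156 in DPP4-4 and GFP-1 (−2.57 ± 0.46, adjusted p = 0.0818). Pfkfb3, which makes the activator of phosphofructokinase, was at 15.6, 15.7 and 21.3 against 61.6 and 79.9 (−2.04 ± 0.42, adjusted p = 0.168). The lactate exporter Slc16a3 was at 8.08, 8.76 and 61.3 against 291 and 297, with ACTB-4 nearer to the other baits than the rest. Gapdh was at 247, 1019 and 257 against 475 and 278 and overlapped.

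Hif3a, Ak4 and the antisense gene Gm45507 were also called lower. No list of low-oxygen genes was counted, so these are single genes. Hif3a, an alpha subunit of the hypoxia-inducible factors, was at 0.117, 0.271 and 1.12 against 37.9 and 34.2 (−6.19 ± 0.94, adjusted p = 0.0390). Ak4, an adenylate kinase of mitochondria, was at 5.55, 3.49 and 1.62 against 51.4 and 53.2, 14.7-fold higher in the other baits (−3.91 ± 0.60, adjusted p = 0.0417). Gm45507 lies antisense within Bnip3 on chromosome 7 (138890964 to 138894675, plus strand) and was at 9.23, 19.0 and 19.0 against 112 and 127 (−2.95 ± 0.44, adjusted p = 0.0390). Its reads cannot be told apart from those of Bnip3, a mitophagy receptor, which was at 10.9, 29.2 and 39.5 against 186 and 201 (−2.89 ± 0.51, adjusted p = 0.0731). Bnip3 and the genes that follow were looked up after the calls were seen. Ero1l, an oxidase of disulfide formation, was at 501, 172 and 250 against 2014 and 2411 (−2.89 ± 0.49, adjusted p = 0.0634). Pdk1, a pyruvate dehydrogenase kinase, was at 66.6, 55.5 and 91.5 against 290 and 340. Egln3, an oxygen-sensing prolyl hydroxylase, was at 72.9, 67.1 and 142 against 519 and 320. All of these lay below both others in every actin library. Vegfa, at 403, 238 and 131 against 327 and 286, overlapped.

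The promoters of these genes were searched for ACGTG, a form of the core bound by hypoxia-inducible factors, on both strands of RefSeq promoter windows of GRCm38.p6. A palindromic CACGTG counts on both strands. The 6 stretches below were picked from genes whose windows hold the core and whose level in every actin library lay below DPP4-4 and GFP-1. Ak4 alone of them was called. The pick is not complete: Fam162a, at 58.5, 51.5 and 65.8 against 216 and 188, also met both conditions. Cores of Aldoa, Ldha and Pgk1 are not shown either. No core was found for Hif3a, Pfkp, Ero1l or Pdk1, though windows were not available for every gene. The stretches are written 5′ to 3′ on the gene's strand, with a core in capitals. CACGT is the core on the opposite strand. The Slc16a3 stretch ends in a further ACGTG on the gene's strand, which is left in lower case.
Ak4: cccactctgcccACGTGcggggaccggcag
Pfkfb3: acccttctctccACGTGaaagggggctggg
Slc16a3: caggcagcggtgACGTGcgcgggggacgtg
Aldoc: cccccagggagtCACGTagctctgcggcaa
Bnip3: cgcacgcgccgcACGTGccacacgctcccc
Egln3: tgtgcatctcagACGTGagatccaggtttt
They lie at chr4:101419478-101419507 (plus strand) for Ak4, chr2:11502125-11502154 (minus) for Pfkfb3, chr11:120949028-120949057 (plus) for Slc16a3, chr11:78323088-78323117 (plus) for Aldoc, chr7:138909596-138909625 (minus) for Bnip3 and chr12:54204086-54204115 (minus) for Egln3. The core was present in 17 of 32 windows of the 20 glycolysis genes (53.1%), and in 6447 of all 32851 windows (19.6%). The list of DNA replication and mitosis genes, given further on, had it in 7 of 26 windows (26.9%). The share of a list comes from its members alone, not from the levels in these libraries. For genes called lower, 11 of 18 had a window, and 2 of their 16 windows (12.5%) held the core. The match is a description of letters only, and binding was not measured.

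DNA replication and mitosis genes lay below 0 in 29 of 30, with a median of −0.73, while 56.98% of all genes lay above 0. At an unadjusted p under 0.05, 6 were lower and 0 higher (3.58% and 3.07% over all genes), and 0 were called by edgeR or DESeq2. Rrm2, a subunit of ribonucleotide reductase, was at 18.3, 25.1 and 49.8 normalized CPM against 117 and 119 (−1.96 ± 0.46, adjusted p = 0.264). Bub1b, a spindle checkpoint kinase, was at 22.8, 30.01 and 31.5 against 52.0 and 77.7. The exception was Pcna, the replication clamp, at 20.4, 47.0 and 39.8 against 24.4 and 20.5. Summed levels were 1070, 1298 and 2151 in the actin libraries and 2476 and 2354 in the others, so ACTB-4 came close to them.

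Crypt stem cell genes were divided, with 10 of 22 above 0, 12 below and a median of −0.12, and DESeq2 called Cd24a alone. Lgr5, the Wnt target that marks crypt base stem cells, was at 10.5, 28.0 and 17.8 against 64.4 and 40.5 (−1.51 ± 0.51, adjusted p = 0.682). Axin2, another Wnt target, was at 17.0, 10.1 and 13.9 against 35.2 and 43.0 (−1.55 ± 0.49, adjusted p = 0.609). Ctnnb1, beta-catenin, lay on the other side, at 560, 713 and 849 against 267 and 224 (1.497 ± 0.42, adjusted p = 0.475). It belongs to the junction list, where 17 of 27 lay above 0, beside 56.98% of all genes, and 5 were higher at an unadjusted p under 0.05.

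Cholesterol synthesis genes lay below 0 in 18 of 24, with a median of −0.48, while 56.98% of all genes lay above 0. In 12 of the 24 every actin library lay below both others, where 10.2% of all genes did. None was called by edgeR. At an unadjusted p under 0.05, 3 were lower (3.58% over all genes), Insig1 and Lss among them, which DESeq2 also called. Insig1, the sterol sensor partner of SCAP, was at 76.5, 59.3 and 34.3 against 291 and 200 (−2.15 ± 0.43, adjusted p = 0.147). Lss, lanosterol synthase, was at 109, 48.8 and 87.6 against 235 and 330. Each actin library lay below both others in these genes.

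**Figure D4:**
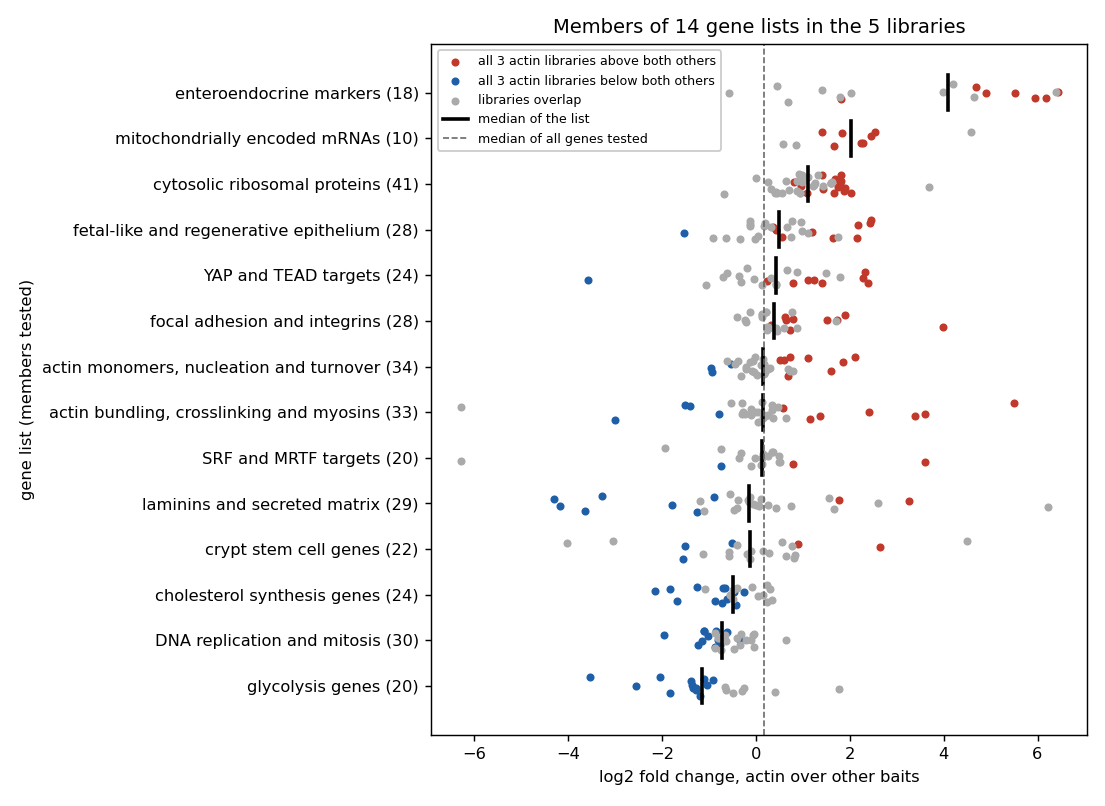
Log2 fold change of the actin bait over the other baits for each member of 14 gene lists, with the number of members tested in brackets. Red and blue points have all 3 actin libraries above or below both others, black bars are list medians, which run from 4.10 (enteroendocrine markers) to −1.15 (glycolysis genes), and the dashed line is the median of all genes tested, 0.17.

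Marker genes of enteroendocrine cells, hormone genes and others, lay above 0 in 16 of 18 tested (56.98% over all genes), with a median of 4.10. Of these genes edgeR called none and DESeq2 called 4 higher. At an unadjusted p under 0.05, 7 were higher and 0 lower (3.07% and 3.58% over all genes). Their summed level was 171, 68.7 and 68.2 normalized CPM in the actin libraries, 7.38 in DPP4-4 and 6.84 in GFP-1, and 438 to 4871 in the 7 libraries over the limit. Chgb, a granin of secretory granules, was at 121, 25.6 and 33.9 against 0.224 and 1.47, the latter from 2 and 53 counts (5.95 ± 1.00, adjusted p = 0.0939). Chga, its relative, was at 9.87, 8.28 and 18.7 against 0 and 0.445. Gip was at 9.28, 3.64 and 2.62 against 0 and 0.0834. The summed level of these markers, much of it Chgb in ACTB-1, was low in all 5 libraries beside the 7 over the limit. DPP4-4 and GFP-1 were nearly without RNA of these markers.

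Mitochondrially encoded mRNAs lay above 0 in 10 of 10 tested (56.98% over all genes), with a median of 2.03. At an unadjusted p under 0.05, 6 were higher and 0 lower (3.07% and 3.58% over all genes). None was called by edgeR, and mt-Nd2 and mt-Nd4 were called by DESeq2. mt-Nd2, a subunit of complex I, was at 227, 256 and 126 against 44.8 and 39.7 (2.23 ± 0.46, adjusted p = 0.155). mt-Nd4 was at 657, 274 and 276 against 88.8 and 71.7. mt-Cytb, the most abundant of them, was at 7621, 2635 and 5942 against 1854 and 3996 and overlapped.

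Cytosolic ribosomal protein genes lay above 0 in 40 of 41 tested with a median of 1.11, 14 higher at an unadjusted p under 0.05 and 0 called by edgeR or DESeq2. In 15 of the 41 every actin library lay above both others, where 13.0% of all genes did. Their summed level was 33210 in ACTB-3, and 12202, 11654, 11680 and 12096 in ACTB-1, ACTB-4, DPP4-4 and GFP-1, so by this sum ACTB-3 alone stood apart. Interferon-stimulated genes lay above 0 in 31 of 33 with a median of 2.75, yet their summed level was 2315 and 3870 in ACTB-1 and ACTB-3, 144 in ACTB-4 and 679 and 340 in DPP4-4 and GFP-1. ACTB-4 was the lowest of the 5, only 1 member was without overlap, and 0 were called by edgeR or DESeq2 (4 higher at an unadjusted p under 0.05).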

How the data were processed

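The authors deposited raw counts per gene for 14 libraries (55401 genes by Ensembl ID, 0 columns of other samples). Per the labels and the methods, RNA biotinylated by APEX2 was enriched on streptavidin, libraries were made with Nextera XT, a kit that does not mark strand, cutadapt 4.0 trimmed the reads, STAR 2.7.9a aligned them to mm10 and HTSeq 1.99.2 counted them. Libraries that the study removed on quality and its batch correction were not repeated, as no label gives preparation dates. Depth was 9763053 to 36388659 counts in the 5 libraries.

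Genes with at least 5 counts over the 5 libraries were tested with edgeR 4.0.16 (limma 3.58.1, R 4.3.3): TMM, robust quasi-likelihood, Benjamini-Hochberg adjustment over all genes, with DESeq2 1.42.0 as an alternative. The scripts were tested on simulated data. Levels are CPM scaled by TMM over the 12 libraries. The test scaled the 5 libraries alone.

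Genes named are the baits, up to 12 called genes in each direction with no overlap, a mean of at least 10 normalized CPM and the largest log2 fold change, filled with those of smallest p, predicted genes left out, and up to 4 members per list and direction with the smallest p and a mean of at least 5. The other called genes, and those said to be looked up, were chosen after their values were seen. The set of libraries and the 32 gene lists were chosen with earlier results of these data known. GENCODE annotation of GRCm38 named 54349 IDs by versioned ID and 792 without version, and 260 had no name. Some genes and lists that the rule names are not reported here.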

Additional observations from a re-analysis of the deposited data

How the results depend on the processing

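The 23 called genes kept their sign under all 15 refits, and how many were called did not stay. As their groups do not overlap, the sign could change only in the refit with all 12 libraries. The counts were 4 higher and 16 lower with RLE scaling and 7 and 22 with library totals without TMM, which moved log2 fold changes by a median of 0.12. Without a filter on low counts there were 124 and 135, with filterByExpr 0 and 1 (Dpp4; 1243 genes at an unadjusted p under 0.05), with 3 bait groups 14 and 15, and with DESeq2 180 and 200, which held all 23. An Lct limit of 0.5 CPM left ACTB-1 alone against DPP4-4 and GFP-1 and gave 1570 and 2109, with the lone library assumed to vary like the others, and a limit of 10 CPM chose the same 5 libraries. All 12 libraries of the 3 baits gave 0 and 0 in edgeR (2295 genes at an unadjusted p under 0.05). Leaving out each library gave 0 to 83 higher and 0 to 98 lower. A log2 fold change over 2, or no limit on it, gave 5 and 18 again. The cause of these shifts was not tested, beyond fewer or more genes and libraries in the fit.

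With the replicate block 6 genes were called higher and 13 lower, and 11 of the 23 calls were kept. The labels number replicates but do not say that a number marks a shared culture, so the main fit had no block. Same-numbered libraries deviated from their group means with r = −0.036 (ACTB-4 with DPP4-4) and 0.056 (ACTB-1 with GFP-1). DPP4-4 and GFP-1 deviate from their common mean by equal and opposite amounts. ACTB-4 with GFP-1 therefore gave 0.036 and ACTB-1 with DPP4-4 gave −0.056. These values cannot show whether a number marks a shared culture. Of the other named genes Trpm5, an ion channel of tuft cells, went from a log2 fold change of 0.01 to −1.85 (adjusted p = 0.00311) at the Lct limit of 0.5 CPM. Counts of 0 to 13 per library limit the low side of Tbx3, Irx5 and Nlrp10, and DPP4-4 had the fewest counts.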
